A study of Mus musculus with 6 samples.

Results

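Retinoic acid is the active form of vitamin A, and 9 mouse genes of its pathway are described here in the rostral forebrain of embryos lacking Fezf1 and Fezf2 and of wild-type embryos. The genes were chosen by name: Aldh1a1, Aldh1a2 and Aldh1a3 for synthesis, Crabp1 and Crabp2 for binding in the cytoplasm, Rara, Rarb and Rarg for the nuclear receptors, and Cyp26b1 for degradation. Each probe set whose annotation names one of these genes alone was taken, which gave 12 probe sets of the 34958 that name a single gene. The 9 genes are among 18194 genes measured, and 6 of them lie above the expression filter that 11097 genes passed. Aldh1a2, Rara and Cyp26b1 lie below it and received no test.

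Forebrain tissue, cut at the level where the lateral ventricles end caudally, came from wild-type embryos and from Fezf1-/- Fezf2-/- embryos, which lack a pair of zinc-finger repressors of the early forebrain. Both genotypes were sampled on embryonic day 9.5 (E9.5), day 10.5 (E10.5) and day 12.5 (E12.5), with 1 microarray per genotype and age, so no group has a replicate. The labels do not state how many embryos went into an array, which strain was used or whether the controls were littermates. The arrays hold whole dissected tissue, so fewer cells of a type and less RNA per cell cannot be told apart. Signals are linear probe set intensities after quantile normalization, the median of all of them is 24.0, and a signal under that level is called dim. Differences are given as log2(signal + 6.50), a scale on which the change of dim genes is understated, and signals of different probe sets are not set against each other.

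Retinol from the blood is oxidised to retinal by retinol dehydrogenases and then to retinoic acid by the retinaldehyde dehydrogenases of the Aldh1a family. Retinoic acid is carried by the cellular binding proteins Crabp1 and Crabp2, is broken down by the Cyp26 enzymes, and acts through retinoic acid receptors that pair with retinoid X receptors on DNA. In the early head, Aldh1a2 is known from mesenchyme and meninges, Aldh1a3 from the surface ectoderm, olfactory placode and ventral retina and later from the lateral ganglionic eminence, Aldh1a1 from the dorsal retina, and the Crabp genes from neural crest and its mesenchyme.

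The best known binding element of a retinoic acid receptor dimer is a direct repeat of 6 bases with a spacer of 5 bases, and its textbook copy stands in front of Rarb. The RefSeq promoter table (GRCm38.p6; 250 bases before to 50 bases after a gene's start) held 12 promoters for 7 of the 9 genes, and those of Aldh1a3 and Crabp2 had no entry. Both strands were searched for 2 half-sites in the same direction with a spacer of 1, 2 or 5 bases. The half-sites accepted were the consensus AGGTCA, the forms of the Rarb element, which reads GGTTCA first and then AGTTCA, and lastly the related form GGGTCA. Since the forms include those of the Rarb element, a match in Rarb was fixed by this choice and is shown only as an illustration. Among the 12 promoters, 1 held such a repeat, that of Rarb, with the spacer of 5. Among 64 promoters of 46 related pathway genes, 2 held a repeat, those of Cyp26a1, which encodes another degrading enzyme, with a spacer of 5, and of Bco1, which encodes a carotenoid-cleaving enzyme, with a spacer of 1. The 100 bases before the start of Rarb (chr14:16575477-16575576, minus strand) and of Cyp26a1 (chr19:37697708-37697807, plus strand) are shown 5′ to 3′ because these are the genes of the set whose promoter window carries the receptor element. Capitals mark the repeat, which lies at bases -53 to -37 in Rarb and, read on the opposite strand, at -32 to -16 in Cyp26a1.
Rarb: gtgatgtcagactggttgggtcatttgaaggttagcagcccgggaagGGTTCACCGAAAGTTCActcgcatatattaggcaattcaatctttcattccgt
Cyp26a1: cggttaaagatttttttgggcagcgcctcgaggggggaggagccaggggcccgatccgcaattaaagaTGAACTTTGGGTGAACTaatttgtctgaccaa
Such a repeat with a spacer of 5 was found in 32 of all 32851 promoters of this length (0.0974%), one with a spacer of 1 in 73 (0.222%) and one with a spacer of 2 in 88 (0.268%). The single half-site AGGTCA stood in 16.3% of all promoters and in 2 of the 12, those of Rara and Rarg. A match is a description of these letters and neither a bound site nor a cause of the values below.

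The targeted genes went with the labels: Fezf2 read 78.9, 146 and 249 on the wild-type arrays in order of age and at most 1.66 on the knockout arrays, and the Fezf1 signal was 143 to 251 in wild type and 49.5 to 97.7 in the knockout. The deposited arrays differed in level, with trimmed means between 74.3 and 162. All 6 rostral forebrain markers in the table were above 24.0 on every array, with a summed signal of 3210 to 5671. Markers of neighbouring tissue were present too. The summed signal of head mesenchyme and neural crest markers was 4288 to 6486 on the E9.5 and E10.5 arrays and 2160 (wild type) and 1504 (knockout) at E12.5, and that of surface ectoderm and olfactory placode markers was 1625 to 2200 before E12.5 and 200 to 201 at E12.5. The 3 lens markers summed to at most 12.6 on any array.

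**Figure D1:**
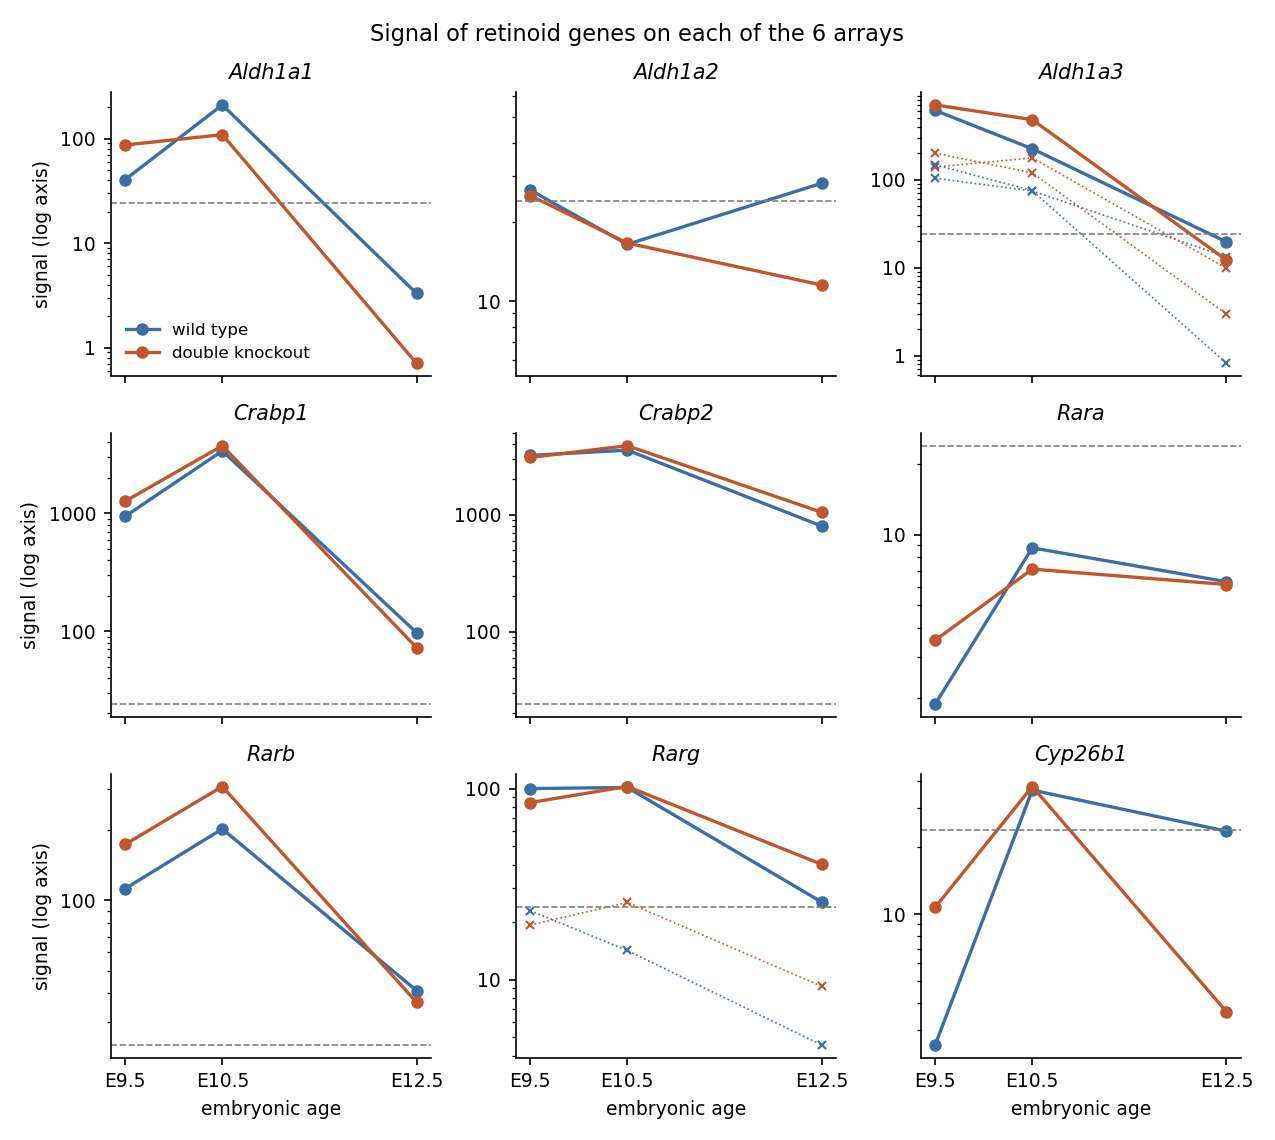
Quantile-normalized signal (log axis) of each of the 9 retinoid genes against embryonic age, with 1 array per point, circles and solid lines for the brightest probe set and crosses and dotted lines for other probe sets; the dashed line is the median signal of 24.0. Aldh1a1, Aldh1a3, Crabp1, Crabp2, Rarb and Rarg are lowest at E12.5 in both genotypes, and Rara stays under the dashed line on all 6 arrays.

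Over the 3 ages the 6 tested retinoid genes showed no genotype effect that passed the test, while each of them was lower at E12.5 than at E10.5 in both genotypes, by 2.81-fold for Rarg to 39.6-fold for Crabp1. The genotype and age effects come from one limma fit over all 11097 tested genes, with Benjamini-Hochberg adjusted p-values and a threshold of 0.05. The p-values rest on what genotype and age leave unexplained in this fit, with 2 residual degrees of freedom per gene before moderation. That remainder mixes the spread between single arrays with any difference between the genotypes in their change with age.

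Of the synthesis genes, Aldh1a1 and Aldh1a3 were above the median signal at E9.5 and E10.5 in both genotypes and under it at E12.5. The brightest probe set of Aldh1a3, whose enzyme makes retinoic acid in placode, eye and later lateral ganglionic eminence, had signals of 614 (wild type) and 709 (knockout) at E9.5, 225 and 482 at E10.5, and 19.6 and 12.2 at E12.5. Both E12.5 arrays were dim and lay far below the other 4, and among those 4 the wild type at E10.5 was the lowest. Aldh1a3 fell by 0.99 ± 0.29 (limma moderated SE; adjusted p = 0.0319) from E9.5 to E10.5, a call that was lost without the filter on dim genes, with the mean of all probe sets and without a variance trend. It fell by 3.93 ± 0.29 from E10.5 to E12.5 (limma adjusted p = 1.33e-05). Because both E12.5 arrays were dim, the size of the fall depends on the settings: from E9.5 to E12.5 the change was -4.91, against -5.32 with a pseudocount of 1, -4.16 with the median as pseudocount and -4.05 when the gene's probe sets were averaged.

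Aldh1a3 was the one retinoid gene at least 2-fold apart between genotypes at any single age with the higher signal above the median. At E10.5 it was 1.08 higher in the knockout, which is 2.11-fold, just past the 2-fold limit. Its other probe sets read 74.4 in wild type and 177 in the knockout (1.18 higher) and 75.1 and 120 (0.63 higher) at this age, so all 3 were higher in the knockout, by different amounts. At E9.5 the 3 probe sets were 0.20 to 0.42 higher in the knockout, and at E12.5, where all were dim, they differed by -0.48, -0.28 and 0.37. For the brightest probe set the change from E10.5 to E12.5 was -3.15 in wild type and -4.71 in the knockout. In this step 61 of the 11097 tested genes had a larger gap between the genotypes. The other probe sets changed by -2.03 (wild type) and -3.49 (knockout) and by -3.48 and -3.74, so the size of the gap depends on the probe set. It ends in dim E12.5 signals, rests on 1 array a group and was not tested.

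Aldh1a1, whose enzyme is the main retinaldehyde dehydrogenase of the dorsal retina, had signals of 40.7 (wild type) and 87.1 (knockout) at E9.5, 211 and 109 at E10.5, and 3.30 and 0.709 at E12.5. The E12.5 arrays were near the bottom of the scale in both genotypes. The order of the genotypes was opposite at the earlier ages, with the knockout 0.99 higher at E9.5 and 0.91 lower at E10.5. In the fit over both genotypes Aldh1a1 rose by 1.25 ± 0.40 from E9.5 to E10.5 (limma adjusted p = 0.0428) and was called lower at E12.5 than at E10.5. The size of that fall cannot be read from dim arrays: its E9.5 to E12.5 change was -2.98 with the pseudocount of 6.50, -4.48 with a pseudocount of 1 and -1.76 with the median as pseudocount. The rise was 2.20 in wild type and 0.31 in the knockout, a gap that 32 of the 11097 tested genes exceeded, against a median gap of 0.213. This difference between the genotypes rests on 1 array a group and was not tested, and the rise in the fit lost its call when the E12.5 arrays were left out, with a pseudocount of 1, without the filter on dim genes, with the mean of all probe sets and without a variance trend. Of the retina and pigment epithelium markers, the summed signal was 269 in wild type and 305 in the knockout at E9.5, 403 and 277 at E10.5, and 137 and 130 at E12.5. By gene and in order of age, 5, 3 and 3 of the 7 markers in the table were higher in the knockout, and the E10.5 sums differed mostly through Pmel (147 and 58.8), a pigment gene singled out after its values were seen. The part of this tissue in the Aldh1a1 values was not tested.

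Aldh1a2, which encodes the main early embryonic retinaldehyde dehydrogenase, had signals of 26.4 and 25.2 at E9.5 (wild type, then knockout), 16.4 and 16.6 at E10.5, and 28.0 and 11.5 at E12.5. The genotypes differed little at E9.5 and E10.5, by -0.05 and 0.01, and at E12.5 the knockout was 0.94 lower, just inside the 2-fold limit. Aldh1a2 lay under the filter on dim genes, so no test bears on this difference. At E12.5 the meninges markers, summing to 357 in wild type and 219 in the knockout, and the head mesenchyme markers were also lower in the knockout. Of the 4 tested meninges markers 1 was higher there, with a median of -0.48, and of the 12 tested head mesenchyme markers 1 was higher, with a median of -0.55. Their part in the Aldh1a2 value was not tested.

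The binding protein genes were above the median signal on all 6 arrays. Crabp1, which encodes a cytoplasmic carrier that marks neural crest and some early neurons, had signals of 945 (wild type) and 1269 (knockout) at E9.5, 3397 and 3756 at E10.5, and 97.0 and 72.5 at E12.5. It was highest at E10.5 and lowest at E12.5 in both genotypes, and the age groups did not overlap. Crabp1 rose by 1.70 ± 0.16 from E9.5 to E10.5 (3.25-fold, limma adjusted p = 3.70e-04) and fell by 5.31 ± 0.16 from E10.5 to E12.5 (39.6-fold, limma adjusted p = 7.83e-07). That fall was larger than that of every other of the 11097 tested genes, and no gene had a smaller p-value in this step. The change was -5.04 in wild type and -5.57 in the knockout.

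Crabp2, which encodes the carrier that delivers retinoic acid to its nuclear receptors, had signals of 3206 (wild type) and 3080 (knockout) at E9.5, 3558 and 3881 at E10.5, and 800.1 and 1049 at E12.5. The E9.5 and E10.5 arrays lay close together and the E12.5 arrays stood below them. The step from E9.5 to E10.5 was 0.24 ± 0.10 and did not pass (limma adjusted p = 0.0954), and the step to E12.5 was a fall of 2.01 ± 0.10 (4.04-fold, limma adjusted p = 2.82e-06). The knockout differed from wild type by -0.06, 0.13 and 0.39 at the 3 ages, and by 0.15 ± 0.08 over them (limma adjusted p = 0.999).

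Among the receptors, Rarb had signals of 112 (wild type) and 174 (knockout) at E9.5, 203 and 308 at E10.5, and 41.1 and 36.6 at E12.5. The knockout was higher at E9.5 and E10.5, by 0.60 and 0.59, and slightly lower at E12.5, by 0.14. The mean difference over the ages was 0.35 ± 0.17, and its unadjusted p of 0.0642 was the smallest of the 6 tested genes (limma adjusted p = 0.999). With age Rarb rose by 0.81 ± 0.20 from E9.5 to E10.5 (1.75-fold, limma adjusted p = 0.0182), by nearly the same amount in wild type (0.81) and knockout (0.80). It then fell by 2.50 ± 0.20 to E12.5 (5.67-fold, limma adjusted p = 2.22e-05), with a change of -2.14 (wild type) and -2.87 (knockout). Like Crabp1 and Aldh1a1, Rarb was highest at E10.5 and lowest at E12.5 in both genotypes. Crabp2 and Rarg had the same order, but their steps from E9.5 to E10.5 did not pass and changed sign in the values as deposited.

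Rarg had signals of 100.1 (wild type) and 84.5 (knockout) at E9.5, 101 and 103 at E10.5, and 25.5 and 40.1 at E12.5. The first 4 arrays lay within a narrow range and both E12.5 arrays were below it. From E9.5 to E10.5 the change was 0.14 ± 0.22 and did not pass (limma adjusted p = 0.668), and from E10.5 to E12.5 Rarg fell by 1.49 ± 0.22 (2.81-fold, limma adjusted p = 5.41e-04). The second probe set was dim on all arrays but 1 and ran from 4.55 to 25.3, with both E12.5 arrays lowest. Between genotypes the brightest probe set differed by -0.23, 0.02 and 0.54 at the 3 ages and the second by -0.19, 0.62 and 0.51. Rara, the receptor known as the most widely present of the family, had signals of 1.88 and 3.53, 8.78 and 7.12, and 6.29 and 6.12 (wild type, then knockout, by age). All 6 values were under the median signal, so the probe set gives neither a level nor a difference that can be read.

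Cyp26b1, whose enzyme degrades retinoic acid, had signals of 2.58 (wild type) and 10.7 (knockout) at E9.5, 36.2 and 37.6 at E10.5, and 23.7 and 3.63 at E12.5. Only the E10.5 arrays were above the median, and there the genotypes differed by 0.05. At E12.5 the knockout was 1.57 lower, the largest single-age difference among the 9 genes, but the wild-type signal of 23.7 lay just under the 24.0 that the 2-fold count requires, and the gene was too dim to be tested. From E9.5 to E12.5 the signal went up by 1.73 in wild type and changed by -0.77 in the knockout. All 4 of those signals were dim and have no replicate, so the gap is a description of these arrays.

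**Figure D2:**
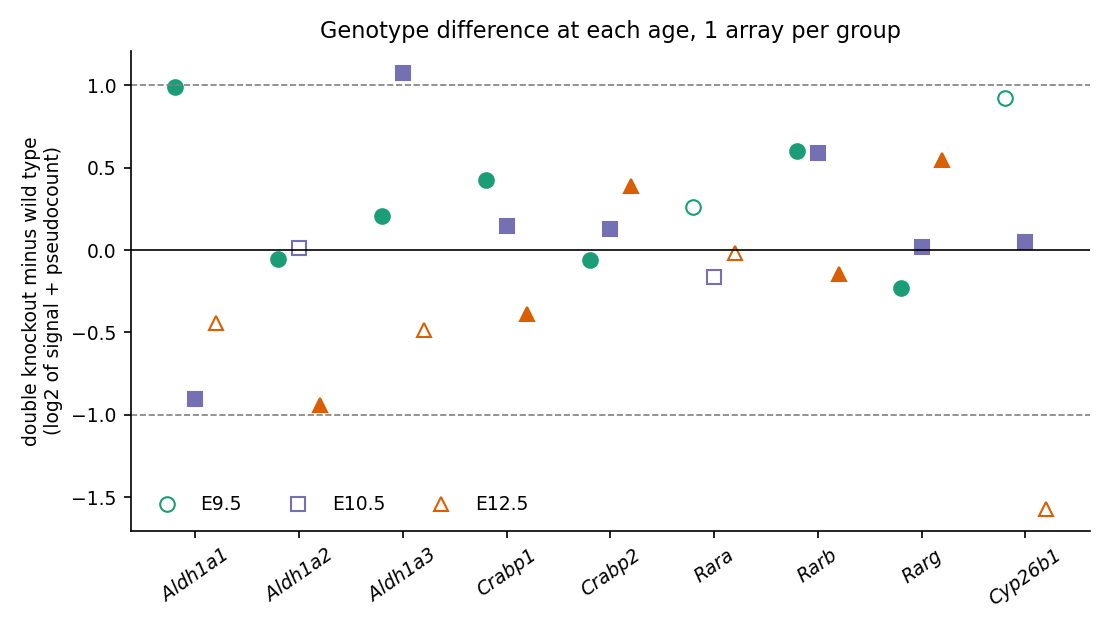
Double knockout minus wild type on the log2(signal + 6.50) scale (vertical axis) for the brightest probe set of each of the 9 genes at E9.5 (circles), E10.5 (squares) and E12.5 (triangles), with 1 array per group; hollow symbols mark pairs with no signal above 24.0 and dashed lines mark 2-fold. Aldh1a3 at E10.5 (1.08) and the hollow Cyp26b1 point at E12.5 (-1.57) lie beyond the lines, and Aldh1a1 changes side between E9.5 and E10.5.

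Side by side, 6 of the 9 genes were higher and 3 lower in the knockout at E9.5 (median 0.26), and 2 were higher and 7 lower at E12.5 (median -0.39). At E10.5, 7 were higher and 2 lower (median 0.05), but 4 were higher and 5 lower when arrays were scaled to a common trimmed mean, so that age has no settled direction. These counts include Rara, which was dim throughout. Cyp26b1 was dim in both genotypes at E9.5 and E12.5, and Aldh1a1 and Aldh1a3 were at E12.5, so the E12.5 count rests largely on dim pairs. The 9 genes also include Aldh1a2, Rara and Cyp26b1, which lie under the filter, unlike the tested genes of the next sentence. Over all 11097 tested genes the medians were 0.01, -0.01 and 0.02, and 52.8%, 47.6% and 53.5% of genes were higher in the knockout. For the head mesenchyme markers, in order of age, 11, 8 and 1 of the 12 tested were higher in the knockout, with medians of 0.38, 0.08 and -0.55. Of the 11 tested surface ectoderm and placode markers, 9, 10 and 7 were higher in the knockout, with medians of 0.21, 0.35 and 0.05, and at E12.5 at most 3 of the list were above the median signal. Of the 6 rostral forebrain markers, 0, 1 and 3 were higher in the knockout, with medians of -0.19, -0.40 and -0.08, and 2 were at least 2-fold lower at E10.5. The part of any of these tissues in the retinoid gene values was not tested.

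Counted by the 2-fold limit, 0 of the 9 genes passed at E9.5, where 0.885% of the 18194 genes were at least 2-fold higher and 0.737% at least 2-fold lower in the knockout. At E10.5 the count was 1 higher (Aldh1a3) and 0 lower, against 0.819% and 1.09% of all genes. At E12.5 it was 0, against 0.319% and 0.236%. By limma over the 3 ages, 0 of the 6 tested genes were called, 0 had an unadjusted p under 0.05, and of all tested genes 0.0180% were called higher and 0.0541% lower in the knockout. The differences over ages were -0.12 ± 0.32 for Aldh1a1, 0.27 ± 0.24 for Aldh1a3, 0.06 ± 0.13 for Crabp1 and 0.11 ± 0.18 for Rarg. A difference present at 1 age counts as error in this fit, so these values do not show that the genotypes are alike.

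With age, 6 of the 6 tested retinoid genes fell from E10.5 to E12.5, against 30.0% of all tested genes that fell and 20.1% that rose (3331 and 2233 genes). Their median change was -3.21 against -0.12 over all tested genes. From E9.5 to E12.5 again 6 of 6 fell, against 37.0% of genes that fell and 25.7% that rose (4103 and 2857 genes), with a median of -2.38 against -0.15. From E9.5 to E10.5, 3 rose (Aldh1a1, Crabp1 and Rarb) and 1 fell (Aldh1a3), against 13.7% and 14.9% of genes (1525 and 1653 genes), with a median of 0.52 against -0.04. Aldh1a1 and Aldh1a3 passed the filter through their signals at the earlier ages, being dim on both E12.5 arrays, so their part in these counts follows from how genes were selected for testing.

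**Figure D3:**
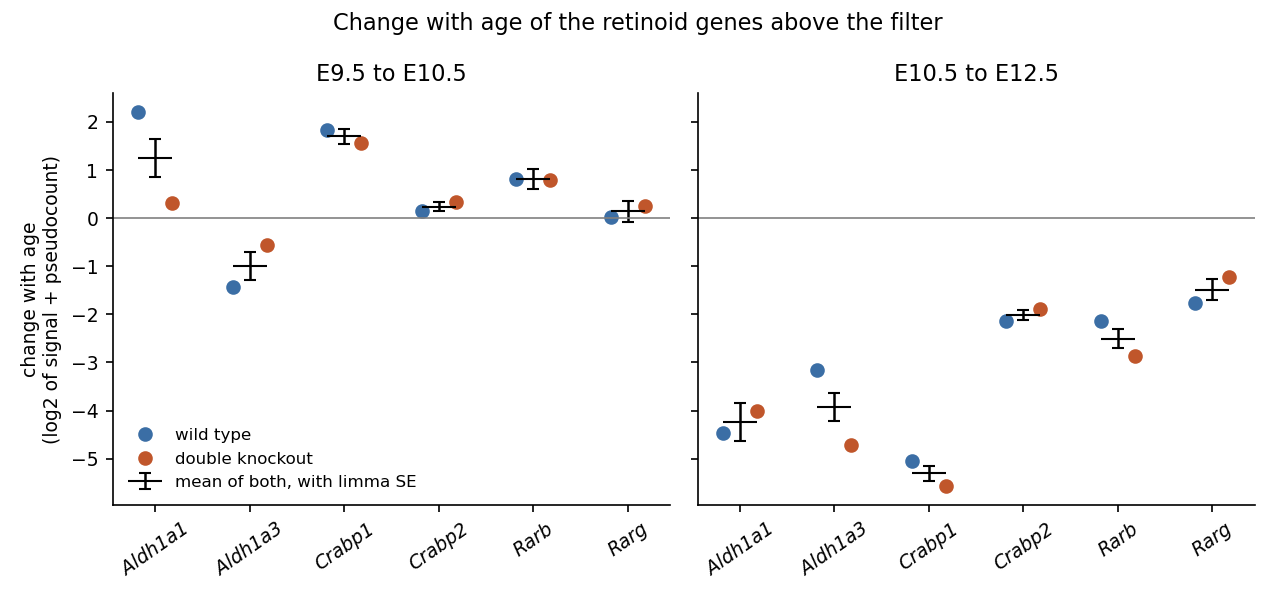
Change with age on the log2(signal + 6.50) scale for the 6 retinoid genes above the filter, from E9.5 to E10.5 (left) and from E10.5 to E12.5 (right), with 1 point per genotype and a black bar for the mean of both with limma's moderated SE. All 12 points of the right panel lie below 0, from -1.23 (Rarg, knockout) to -5.57 (Crabp1, knockout), while in the left panel the Aldh1a1 points stand apart at 2.20 and 0.31.

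The falls to E12.5 kept their direction under all 3 scalings run, but the counts over all genes did not hold. In the values as deposited the median of all tested genes moved by 0.80 from E10.5 to E12.5, by 0.40 from E9.5 to E12.5, by -0.43 from E9.5 to E10.5 and by 0.19 between genotypes, and the calls were 8474 higher and 409 lower, 5438 and 1657, and 524 and 5347 for the 3 age steps. Relative to those medians, the 6 genes changed by -5.25 (Crabp1) to -1.25 (Rarg) from E10.5 to E12.5. Unscaled, Rarg lost its call in that step (-0.44, limma adjusted p = 0.0876) and Rarb its rise from E9.5 to E10.5 (0.48, limma adjusted p = 0.0639), and Crabp2 and Rarg changed sign in the latter step (-0.18 and -0.20). The small E10.5 genotype differences of Aldh1a2, Rarg and Cyp26b1 also turned (-0.11, -0.01 and -0.01) when arrays were scaled to a common trimmed mean, and that of Rara at E12.5 turned (0.09) without scaling.

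Marker genes of tissue around the brain fell over the same interval. From E10.5 to E12.5, 11 of the 12 tested head mesenchyme and neural crest markers fell, with a median of -2.30, and 10 of the 11 tested surface ectoderm and placode markers, with a median of -2.66, and none of either list rose. At E12.5 only 2 (wild type) and 3 (knockout) of the 12 ectoderm and placode markers in the table were above the median signal. For head mesenchyme it was 8 and 7 of 13. Markers dim at E12.5 passed the filter through the earlier ages, so selection had a part in these falls. Of the 4 tested meninges markers 3 fell (median -1.19), of the 3 tested retina and pigment epithelium markers 2 fell (median -1.46), and of the 6 endothelial markers 2 fell (median -0.38). Of the 4 tested erythroid markers 3 fell (median -1.56). Of the 6 rostral forebrain markers 4 rose and 1 fell, with a median of 0.67. The fall of the retinoid genes thus went together with that of markers of several tissues, among them mesenchyme, ectoderm and blood. How much of it came from any of these tissues was not tested.

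**Figure D4:**
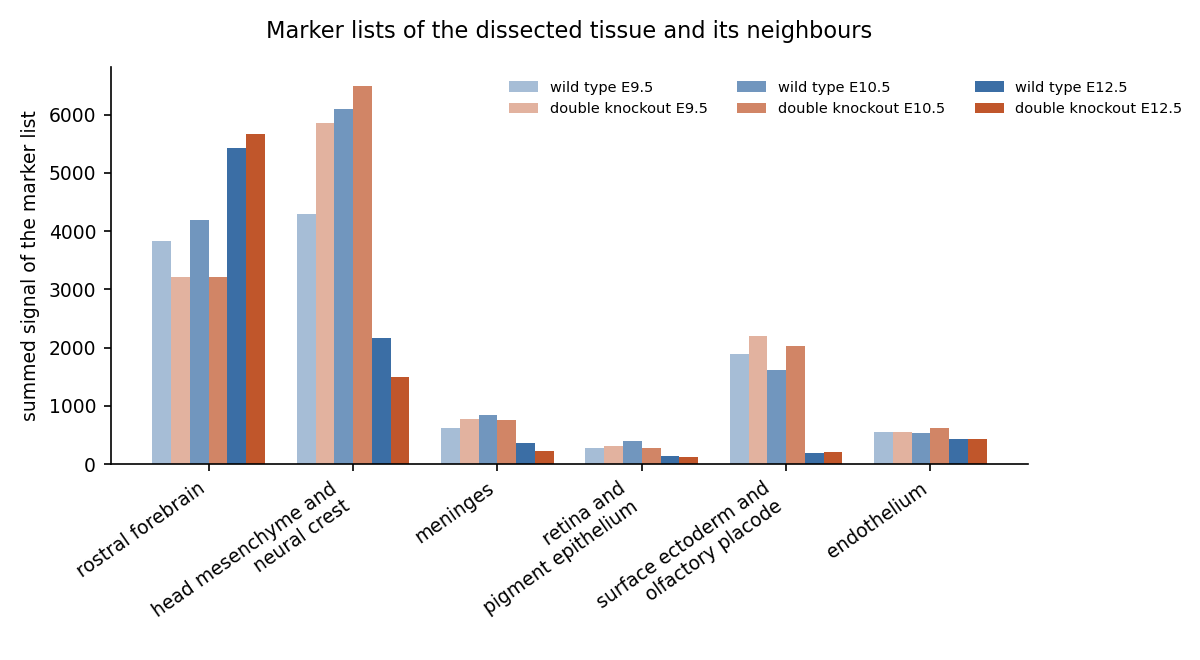
Summed quantile-normalized signal (vertical axis, from 0) of 6 marker lists on each of the 6 arrays, blue for wild type and orange for the double knockout, darker with age. The lens and erythroid lists are not drawn. The head mesenchyme and surface ectoderm sums are lowest at E12.5 in both genotypes, and the rostral forebrain sums are highest there (5421 and 5671).

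By likeness over the 6 arrays, measured as Pearson's r of log2 values among 4333 tested genes that span at least 1 log2 unit, the genes nearest to Aldh1a3 were Plekhg3 and Dsp, which encodes the desmosomal protein desmoplakin (both r = 0.999). Those nearest to Crabp1 were Rhd (0.998) and Tnfaip8 (0.996), those nearest to Crabp2 were Rflnb (0.999) and Grwd1 (0.999), and those nearest to Aldh1a1 were Nkd2 and Hddc2 (both 0.995). Kif26b (0.997) and Eya2 (0.994), a placode transcription cofactor, came nearest to Rarb, and Coa7 (0.998) and Hmga2 (0.997) to Rarg. These values describe 6 arrays that share 3 ages, the points fall into an early and a late cluster, and between 149 (Aldh1a1) and 802 (Aldh1a3) genes exceed r = 0.95, so a high r is common here.

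The other genes of the pathway were taken from lists of names. Of the 8 listed genes for retinol uptake and storage, 7 were in the table and 2 passed the filter: Stra6, the cell-surface retinol receptor, fell by 1.16 ± 0.24 from E10.5 to E12.5 (limma adjusted p = 0.00319), and Ttr, which encodes the plasma carrier transthyretin and marks choroid plexus, rose by 5.54 ± 0.68 (limma adjusted p = 1.80e-04). The Stra6 signals were 48.0 and 47.8 at E9.5 (wild type, then knockout), 50.9 and 53.9 at E10.5, and 17.1 and 23.2 at E12.5, lowest at E12.5 in both genotypes. Both E12.5 signals of Stra6 were dim, so it passed the filter through the earlier ages and selection had a part in its fall. The Ttr signals were 2.63 and 8.03 at E9.5 (wild type, then knockout), 13.96 and 12.71 at E10.5, and 2661.5 and 314.3 at E12.5. Every Ttr signal before E12.5 was dim, so it passed the filter through the E12.5 arrays and selection had a part in its rise. The size of that rise cannot be read from dim arrays. Ttr was also at least 2-fold lower in the knockout at E12.5.

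Of the 14 listed retinol and retinal oxidoreductases, 13 were in the table and 7 were tested. From E10.5 to E12.5, where 20.1% of all tested genes rose and 30.0% fell, none of the 7 rose and 4 fell: Rdh10, the main embryonic retinol dehydrogenase, by 0.73, Rdh13 by 0.54, Dhrs4 by 0.50 and Adh5 by 0.39, with a median of -0.39 over the 7. Dhrs3, which reduces retinal back to retinol and lay under the filter, read 25.6 (wild type) and 57.8 (knockout) at E10.5, at the 2-fold limit, and it was 0.63 and 0.64 higher in the knockout at E9.5 and E12.5, where the E12.5 signals of 6.76 and 14.1 were dim. Of the other Cyp26 enzymes and the fatty acid and retinoid carrier Fabp5, 2 of the 3 listed were in the table. Cyp26a1, whose promoter stretch is printed above, had signals of 34.2 and 29.6 at E9.5 (wild type, then knockout), 56.5 and 48.4 at E10.5, and 6.99 and 12.3 at E12.5. Cyp26a1 fell by 1.89 ± 0.29 from E10.5 to E12.5 (limma adjusted p = 7.08e-04), and Fabp5 rose by 0.24. Both E12.5 signals of Cyp26a1 were dim, so it passed the filter through the earlier ages and selection had a part in its fall.

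Of the 3 retinoid X receptors, the partners of the retinoic acid receptors on DNA, 2 were tested and neither passed in any step. For Rxra the change from E10.5 to E12.5 was -0.47 ± 0.20 (limma adjusted p = 0.0771). Of the 10 receptor coregulators measured and tested, 2 rose from E10.5 to E12.5 (the coactivator Ncoa1 by 1.45 and the corepressor deacetylase Hdac3 by 0.71) and 3 fell (Ncoa3 by 0.80, Nrip1 by 0.62 and Tbl1x by 0.31), with a median of 0.08. These counts are close to the shares of all tested genes that rose (20.1%) and fell (30.0%).

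Of 13 listed genes known to respond to retinoic acid in embryos or cells, 11 were in the table and 7 were tested. From E10.5 to E12.5, 3 rose (Meis2 by 1.26, Nr2f1 by 0.72 and Nr2f2 by 0.47, all transcription factor genes that forebrain progenitors also use) and 2 fell (Tgm2, tissue transglutaminase, by 1.88 and Meis1 by 0.49), against 20.1% and 30.0% of all tested genes. From E9.5 to E10.5 none rose and 3 fell (Meis2 by 0.76, Tgm2 by 0.77 and Zfp703 by 0.50), against 13.7% and 14.9%. Of 10 listed genes of the lateral ganglionic eminence and striatum, the region in which Aldh1a3 is known at later stages, 8 were tested. From E10.5 to E12.5, 4 rose (Tac1 by 2.33, Isl1 by 2.24, Ebf1 by 1.34 and Gsx2 by 0.88) and 1 fell (Six3 by 0.44), against 20.1% and 30.0% of all tested genes. At E12.5 Ebf1 was 1.26 higher and Ikzf1 1.47 lower in the knockout, without a test. No gene of these lists was called between genotypes over the 3 ages.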

How the data were processed

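Total RNA of 6 hand-dissected forebrain samples was labelled by in vitro transcription and hybridised to 1 Affymetrix array each, per the labels' protocols. Each deposited value is a linear probe set intensity, for which the submitters' processing notes name MAS5 (scaling target, detection calls and version: not given in the sources used here). MAS5 background correction could not be redone from the table, and the number of arrays limits the precision.

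Of 45101 probe sets, 34958 name 1 gene, 932 several and 9211 none in the platform annotation. Intensities were quantile normalized, 6.50 (the lower quartile of all deposited values) was added, and log2 was taken. A gene takes its brightest probe set, and genes whose mean log2 value exceeded the probe sets' overall median entered limma 3.58.1 in R 4.3.3 (lmFit, eBayes with a trend; genotype and age as factors; residual df 2, 9.21 after moderation), with Benjamini-Hochberg adjustment over all 11097. The fit was tested on simulated data. At one age, with 1 array per group, genes were counted at 2-fold or more with the higher signal above 24.0.

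The 9 genes and the lists were chosen with earlier results of these data known. Named were the 9 genes, list genes that passed a test or were 2-fold apart at an age, and the 2 nearest genes by correlation. Alternatives were other scaling, pseudocounts of 1 and 22.5, no filter, other probe set rules, no variance trend, no block, and leaving out each age's pair. The age steps share arrays.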

Additional observations from a re-analysis of the deposited data

Results flagged for a closer look

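Aldh1a1 differed between genotypes in opposite directions at neighbouring ages: the knockout was higher than wild type by 0.99 at E9.5 (signals 87.1 and 40.7) and lower at E10.5, with a difference of -0.91 (signals 109 and 211), on the log2(signal + 6.50) scale. Each difference is at least 1.5-fold, a size limit chosen after the values were seen. The opposite directions were kept under all scalings tried (1.02 and -0.67 in the values as deposited, 0.95 and -0.96 with a common trimmed mean). The difference between the ages was not tested, since each value compares 1 array with 1 array.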

How the results depend on the processing

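By limma over ages, 0 of the tested retinoid genes were called between genotypes under every alternative run, and 6 fell from E9.5 to E12.5 under every alternative run; from E10.5 to E12.5 the count was 6, or 5 in the values as deposited. From E9.5 to E10.5 the count of 4 became 2 without the filter on dim genes, 2 with the mean of all probe sets, 1 without a variance trend (Crabp1), 3 with a pseudocount of 1, 3 in the values as deposited and 3 without the E12.5 pair. The count of genes 2-fold apart between genotypes at E9.5, 0 in the report, was 1 in the values as deposited and 1 with a pseudocount of 1. At E10.5 it was 0 with the mean of all probe sets (Aldh1a3 at 0.96) and 2 counted over single probe sets, both of Aldh1a3. At E12.5 it was 1 in the values as deposited, 2 with a common trimmed mean and 1 with a pseudocount of 1. Leaving out each age's pair in turn gave genotype differences over ages of -0.68 to 0.27 for Aldh1a1, -0.14 to 0.64 for Aldh1a3, -0.12 to 0.28 for Crabp1 and -0.11 to 0.28 for Rarg, so none of these 4 has a stable sign. For Aldh1a1 the difference was 0.27 without E10.5 and 0.04 without E12.5. For single genes, tallied for the genotype difference over ages, the E9.5 to E12.5 change and Aldh1a3 at E10.5, 120 values under alternatives kept their direction and side of the threshold, 5 changed sign (the leave-one-out values of these 4 genes) and 1 moved (Aldh1a3 at E10.5). The shorter age steps of single genes are outside this tally, and their lost calls and changed signs are given in the report. Age and genotype served as blocks of each other, so the genotype contrast was paired by age and the age contrasts by genotype. With 1 array per genotype and age and no replicate numbers in the labels, no other pairing was possible. A fit of 1 genotype's 3 arrays alone has no residual degrees of freedom and was not run. Dim signals limit Aldh1a2, Rara and Cyp26b1.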
